A study of Homo sapiens with 12 samples.

Results

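The miR-30 family is a group of related microRNAs (miRNA), and 8 of its mature arms, of the 1133 miRNA counted in the data set, are described here across 4 groups of extracellular vesicles (EV). The members are the 5p arms hsa-miR-30a-5p, hsa-miR-30b-5p, hsa-miR-30c-5p, hsa-miR-30d-5p and hsa-miR-30e-5p and the 3p arms hsa-miR-30a-3p, hsa-miR-30d-3p and hsa-miR-30e-3p. They were taken from the table by their names. The study sequenced small RNA of EV released by human induced pluripotent stem cells (hiPSC) of the line IMR90-4 and by cells differentiated from them into cardiomyocytes. hiPSC-EV came from undifferentiated cells at day 0 after 24 h of conditioning of the medium, CPC-EV from cardiac progenitor cells at day 6 after 72 h, CMi-EV from immature cardiomyocytes at day 15 after 48 h, and CMm-EV from more mature cardiomyocytes at day 35 after 48 h. Each group had 3 libraries from independent cultures, and all cells descend from 1 hiPSC line. Stage, day, culture format and conditioning time change together between most groups, and each group had its own culture medium. The parts of these factors in a difference therefore cannot be told apart.

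A miRNA hairpin gives a 5p arm and a 3p arm, and the arm that is loaded into an Argonaute protein guides it to messenger RNAs that pair with the seed near the 5′ end of the miRNA. The miR-30 5p arms are abundant in heart muscle, where they are known to repress transcripts such as CCN2 (connective tissue growth factor) and BECN1 (an autophagy regulator). Family members are also known to fall in fibrotic heart tissue and to take part in epithelial and mesenchymal transitions.

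Mature sequences of 5 of the 8 members were matched in RefSeq (GRCh38.p14), and they are shown because arms this much alike can share reads. They are written 5′ to 3′, with the seed (bases 2 to 8) in capitals. The 5p arms below share 1 seed.
hsa-miR-30a-5p: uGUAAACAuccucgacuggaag
hsa-miR-30c-5p: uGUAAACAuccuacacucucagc
hsa-miR-30e-5p: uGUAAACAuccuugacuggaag
The 3p arms below share another seed.
hsa-miR-30a-3p: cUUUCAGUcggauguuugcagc
hsa-miR-30e-3p: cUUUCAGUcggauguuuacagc
Counting positions from 1 at the 5′ end, miR-30e-5p differs from miR-30a-5p by the substitution C13U, and miR-30e-3p differs from miR-30a-3p by G18A. The 5p arms of 30a and 30c are identical over their first 12 bases and differ at 5 of the 22 positions compared.

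In GRCh38, miR-30e-5p lies at chr1:40754371-40754392 and 1 copy of miR-30c-5p at chr1:40757300-40757322, both on the plus strand in introns of NFYC, a subunit gene of a CCAAT-binding transcription factor. The gene of miR-30a (its 5p arm at chr6:71403595-71403616) lies on the minus strand in an intron of the long noncoding RNA gene LINC00472. The other copy of miR-30c-5p (chr6:71377003-71377025, minus strand) belongs to a hairpin that overlaps an exon of LINC00472. The counts of miR-30c-5p therefore join transcripts of 2 loci.

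Libraries held from 703415 miRNA counts (hiPSC-EV replicate 1) to 6272455 (CMm-EV replicate 2), and the depth ranges of the 4 groups overlapped. Levels are given as CPM, counts brought to a common total of miRNA counts, scaled over all 12 libraries by the trimmed mean of M-values (TMM), a method that sets library scales from miRNA that differ little. The TMM factors moved with the groups, at 0.838 to 1.22 in hiPSC-EV and 1.19 to 1.75 in CPC-EV, then 1.01 to 1.13 in CMi-EV and 0.50 to 0.836 in CMm-EV. A single miRNA, miR-100-5p, took 0.187% ± 0.029 (SD, n = 3) of the miRNA counts in hiPSC-EV and 0.306% ± 0.152 in CPC-EV, then 22.7% ± 3.65 in CMi-EV and 25.6% ± 2.54 in CMm-EV. Levels before TMM scaling are therefore given as well. More EV of one kind and more of a miRNA in each EV cannot be told apart in these bulk preparations.

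Marker miRNA were compared with the labelled stages. The summed level of 8 pluripotency miRNA (from clusters such as that of miR-302) was 186835 ± 20632 CPM (SD, n = 3) in hiPSC-EV and 66044 ± 15628 in CPC-EV, then 5400 ± 1379 in CMi-EV and 182 ± 105 in CMm-EV. miR-302b-3p was the most abundant of them. The 6 cardiomyocyte miRNA, led by miR-1-3p, summed to 60.3 ± 12.1 CPM in hiPSC-EV and 1045 ± 414 in CPC-EV, then 49676 ± 27523 in CMi-EV and 99210 ± 94784 in CMm-EV. The wide spread in CMm-EV came from replicate 3, at 208375 CPM beside 37819 and 51436 CPM in the other libraries, both inside the CMi-EV range. Without replicate 3 the CMm-EV mean was 44628 CPM, below that of CMi-EV. The order of these groups in this sum therefore rested on 1 library. With TMM scaling, some lesser members were higher in every CMm-EV library than in any CMi-EV library. miR-133a-3p had 3033 to 5248 against 2428 to 2831 CPM, and miR-208b-3p had 75.3 to 116 against 0 to 36.9 CPM. For miR-499a-5p the ranges were 240 to 436 against 0 to 93.5 CPM. miR-1-3p, miR-133b and miR-208a-3p overlapped between both groups. All 6 cardiomyocyte miRNA had counts in each CMm-EV library, while miR-208b-3p had none in hiPSC-EV and miR-208b-3p and miR-499a-5p had none in CPC-EV.

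Markers assigned here to other cell types also moved between the groups, though the paper lists miR-143, miR-145 and miR-486 among muscle miRNA. The smooth muscle and fibroblast pair miR-143-3p and miR-145-5p, of which miR-143-3p was the more abundant, summed to 331 ± 129 CPM (SD, n = 3) in hiPSC-EV and 2991 ± 1264 in CPC-EV, then 42990 ± 15374 in CMi-EV and 167773 ± 36289 in CMm-EV. The 4 hepatocyte and endoderm miRNA summed to 1792 ± 475 CPM in hiPSC-EV and 7374 ± 1332 in CPC-EV, then 4817 ± 2085 in CMi-EV and 3166 ± 1154 in CMm-EV. The most abundant of them was miR-375-3p in CPC-EV, with a mean of 4032 CPM beside 2542 CPM of miR-192-5p, and miR-192-5p in the other groups. Of 5 blood miRNA, 4 were in the table and nearly all of their level was miR-486-5p, and they summed to 7046 ± 1691 CPM in hiPSC-EV and 983 ± 152 in CPC-EV, then 1621 ± 773 in CMi-EV and 826 ± 52.3 in CMm-EV. Their CPC-EV, CMi-EV and CMm-EV ranges overlapped. Apart from miR-486-5p, each counted blood miRNA averaged at most 27.1 CPM in any group. Endothelial miR-126-3p and miR-126-5p stayed at or below 115 CPM in sum in every library, and neuronal miR-124-3p and miR-9-5p summed to 281 ± 149 CPM in hiPSC-EV, 68.0 ± 12.3 CPM in CPC-EV and 36.4 ± 25.1 CPM in CMi-EV and had no count in CMm-EV. The part of these cell types in the miR-30 levels was not tested.

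hsa-miR-30d-5p was the most abundant member on average, and its level was 7515, 10114 and 11066 CPM in the 3 hiPSC-EV libraries, 6260, 7334 and 6233 CPM in CPC-EV, 20697, 22585 and 20085 CPM in CMi-EV and 29950, 26763 and 28571 CPM in CMm-EV. All cardiomyocyte EV libraries lay above all hiPSC-EV and CPC-EV libraries, and CMm-EV lay above CMi-EV. Without TMM scaling the same miRNA stood at 9201, 10132 and 9273 CPM in hiPSC-EV and 9711, 8750 and 10894 CPM in CPC-EV, then 21697, 25505 and 20315 CPM in CMi-EV and 25044, 16090 and 14280 CPM in CMm-EV. On that scale hiPSC-EV and CPC-EV overlapped, the cardiomyocyte EV libraries still lay above them, and CMi-EV and CMm-EV overlapped. It ranked between 9th and 17th of all miRNA by count in the 12 libraries.

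miR-30e-5p had 9326, 12059 and 12593 CPM in hiPSC-EV and 5967, 6336 and 5687 CPM in CPC-EV, then 12665, 15238 and 14585 CPM in CMi-EV and 16391, 16218 and 15173 CPM in CMm-EV. It was the leading member in hiPSC-EV, lowest in CPC-EV, and its CMi-EV and CMm-EV ranges overlapped. Without TMM scaling it had 11419, 12079 and 10552 CPM in hiPSC-EV, 9257, 7558 and 9939 CPM in CPC-EV, 13277, 17208 and 14752 CPM in CMi-EV and 13706, 9750 and 7583 CPM in CMm-EV. On that scale CPC-EV still lay below hiPSC-EV, CMi-EV lay above both, and CMm-EV overlapped with each of the other groups.

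miR-30c-5p had 7190, 8451 and 8645 CPM in hiPSC-EV and 5360, 6498 and 5150 CPM in CPC-EV, then 12251, 17373 and 13859 CPM in CMi-EV and 17740, 18993 and 17453 CPM in CMm-EV. With TMM scaling CPC-EV was lowest, and the highest CMi-EV library lay just under the lowest CMm-EV library. Without it the levels were 8803, 8466 and 7244 CPM in hiPSC-EV, 8315, 7752 and 9000 CPM in CPC-EV, 12843, 19619 and 14017 CPM in CMi-EV and 14835, 11418 and 8723 CPM in CMm-EV. hiPSC-EV and CPC-EV then overlapped, CMi-EV lay above both, and CMm-EV reached from the CMi-EV range down into theirs.

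miR-30a-5p, from which miR-30e-5p differs by C13U, was less abundant. Its level was 2509, 3354 and 4978 CPM in hiPSC-EV and 1364, 1482 and 1294 CPM in CPC-EV, then 5075, 5161 and 6185 CPM in CMi-EV and 7729, 7587 and 7583 CPM in CMm-EV. The hiPSC-EV libraries spread widely and ended just under CMi-EV, while the CPC-EV libraries lay close together below them. Without TMM scaling it had 3072, 3360 and 4171 CPM in hiPSC-EV, 2116, 1767 and 2261 CPM in CPC-EV, 5320, 5828 and 6256 CPM in CMi-EV and 6463, 4562 and 3790 CPM in CMm-EV. CPC-EV was again lowest, and CMm-EV then overlapped with both hiPSC-EV and CMi-EV.

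miR-30b-5p was the least abundant 5p arm, at 308, 421 and 744 CPM in hiPSC-EV and 253, 335 and 268 CPM in CPC-EV, then 775, 1034 and 848 CPM in CMi-EV and 1439, 1512 and 1119 CPM in CMm-EV. Its hiPSC-EV and CPC-EV ranges overlapped, and with TMM scaling its cardiomyocyte EV libraries lay above both. Without it the levels were 377, 422 and 623 CPM in hiPSC-EV, 393, 399 and 468 CPM in CPC-EV, 813, 1168 and 858 CPM in CMi-EV and 1203, 909 and 559 CPM in CMm-EV. CMi-EV still lay above hiPSC-EV and CPC-EV, but CMm-EV replicate 3 fell below hiPSC-EV replicate 3.

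miR-30e-3p had 218, 479 and 492 CPM in hiPSC-EV and 264, 495 and 311 CPM in CPC-EV, then 488, 484 and 753 CPM in CMi-EV and 930, 842 and 1007 CPM in CMm-EV. miR-30a-3p had 65.0, 114 and 164 CPM in hiPSC-EV and 25.7, 75.4 and 91.5 CPM in CPC-EV, then 99.6, 119 and 248 CPM in CMi-EV and 193, 236 and 338 CPM in CMm-EV. miR-30e-3p was above miR-30b-5p in each CPC-EV library. With TMM scaling the hiPSC-EV, CPC-EV and CMi-EV ranges overlapped for both arms, except that CPC-EV ended just under CMi-EV for miR-30a-3p, and CMm-EV held the highest library. Without it miR-30e-3p ranged from 503 to 778 CPM in CMm-EV and from 511 to 762 CPM in CMi-EV, and miR-30a-3p from 142 to 169 CPM and from 104 to 251 CPM. On that scale the cardiomyocyte EV groups overlapped for both arms, and CPC-EV, at up to 160 CPM of miR-30a-3p, overlapped with CMi-EV.

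miR-30d-3p had counts in some libraries of 3 groups and in no CPC-EV library. It had 0, 41 and 29 counts in hiPSC-EV, 0 counts in each CPC-EV library, 0, 0 and 23 counts in CMi-EV and 86, 0 and 63 counts in CMm-EV. Its level was 104 CPM in CMm-EV replicate 1 and 24.8 CPM in replicate 3, while replicate 2, the deepest library, had no count. A count of 0 allows a level of up to 3 counts, which is 0.744 to 1.15 CPM in CPC-EV, and this limit covers counting error only. The member had counts in 5 libraries and missed them in 7, and reached 5 CPM in all 3 libraries of no group, so it was not tested with the filter and all libraries. The other 7 members reached 5 CPM in each library of all 4 groups, so none entered the tests through 1 high group alone.

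**Figure D1:**
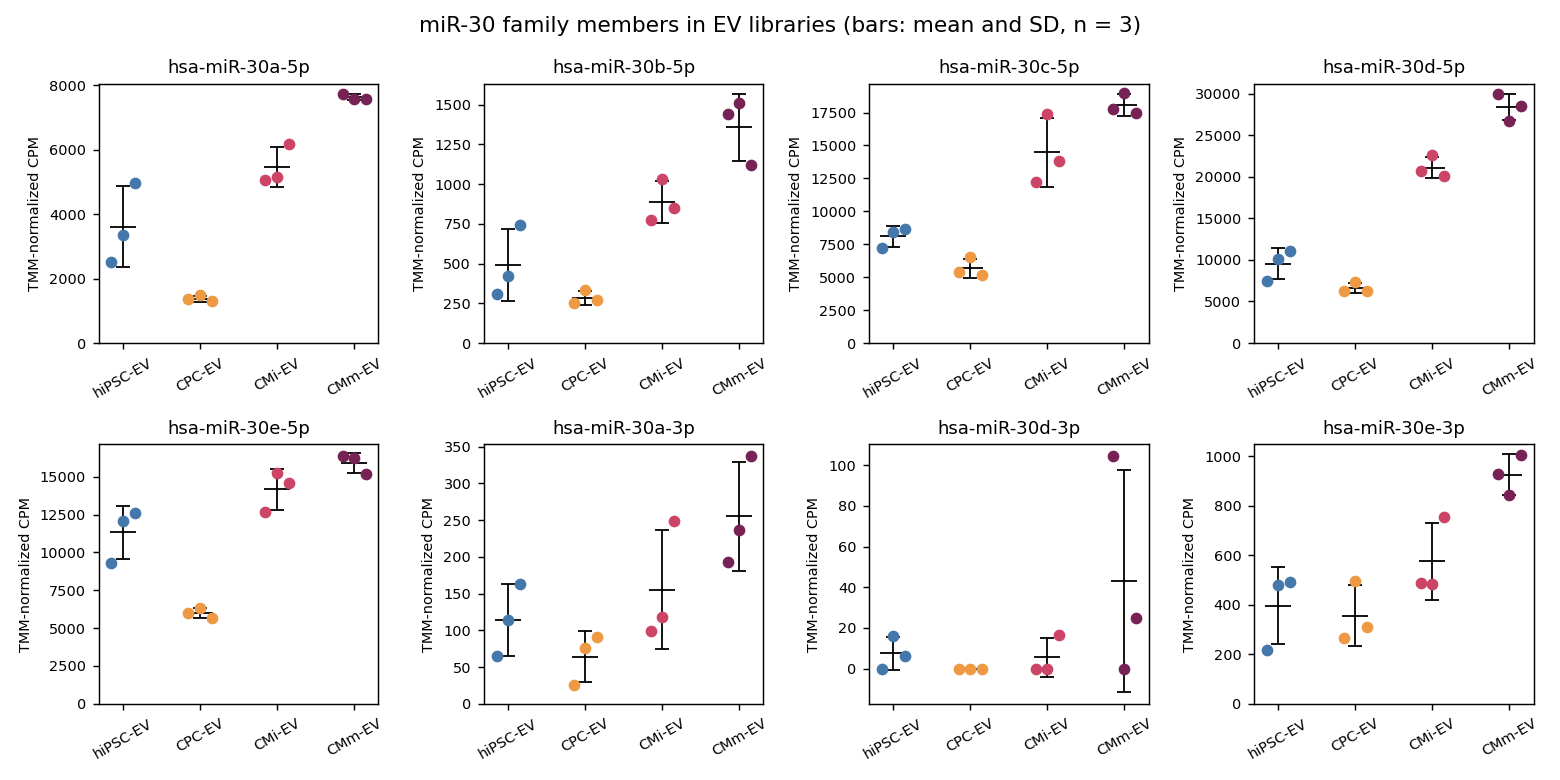
TMM-normalized CPM of the 8 members (1 panel each, linear axes) in the 12 EV libraries, with points for libraries and bars for the mean and SD of 3. The 5p arms are lowest in CPC-EV and highest in CMm-EV on this scale; without TMM scaling the mean of each 5p arm is higher in CMi-EV than in CMm-EV, and hsa-miR-30d-5p overlaps between hiPSC-EV (9201 to 10132 CPM) and CPC-EV (8750 to 10894 CPM) and between CMi-EV (20315 to 25505 CPM) and CMm-EV (14280 to 25044 CPM).

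Near-identical arms make part of these counts uncertain. The deposited values are estimated counts, in which a read that matches several miRNA can be split, and 14 of the 29 nonzero values of the 3p members were not whole numbers (tolerance 1e-06), against 2 of the 60 nonzero values of the 5p members. Those of the 5p members belonged to miR-30b-5p and miR-30c-5p, with none for miR-30a-5p or miR-30e-5p. Values that were not whole were thus more frequent among the 3p members. There they all belonged to miR-30a-3p and miR-30e-3p, which differ by G18A, and fell in the same libraries for both arms. The share of reads that was split was not measured, so how certain the split between these arms is remains unknown. How trimmed or misread reads were assigned was not tested.

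The 8 members together took 3.32%, 3.51% and 3.24% of miRNA counts in hiPSC-EV and 3.02%, 2.69% and 3.33% in CPC-EV, then 5.46%, 7.00% and 5.72% in CMi-EV and 6.23%, 4.34% and 3.56% in CMm-EV. The CMi-EV libraries lay above all hiPSC-EV and CPC-EV libraries, hiPSC-EV and CPC-EV overlapped, and CMm-EV spread from near hiPSC-EV into the CMi-EV range. After TMM scaling the sum was 3.36% ± 0.59 (SD, n = 3) of the scaled total in hiPSC-EV and 2.04% ± 0.19 in CPC-EV, then 5.69% ± 0.50 in CMi-EV and 7.26% ± 0.17 in CMm-EV. As RPM, which divides by a library total larger than the miRNA counts, it was 3.64% ± 0.21 in CMi-EV and 3.48% ± 0.41 in CMm-EV. The RPM ranges of these groups overlapped. The order of CMi-EV and CMm-EV therefore depended on the scale, while CMi-EV was above CPC-EV on each.

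**Figure D2:**
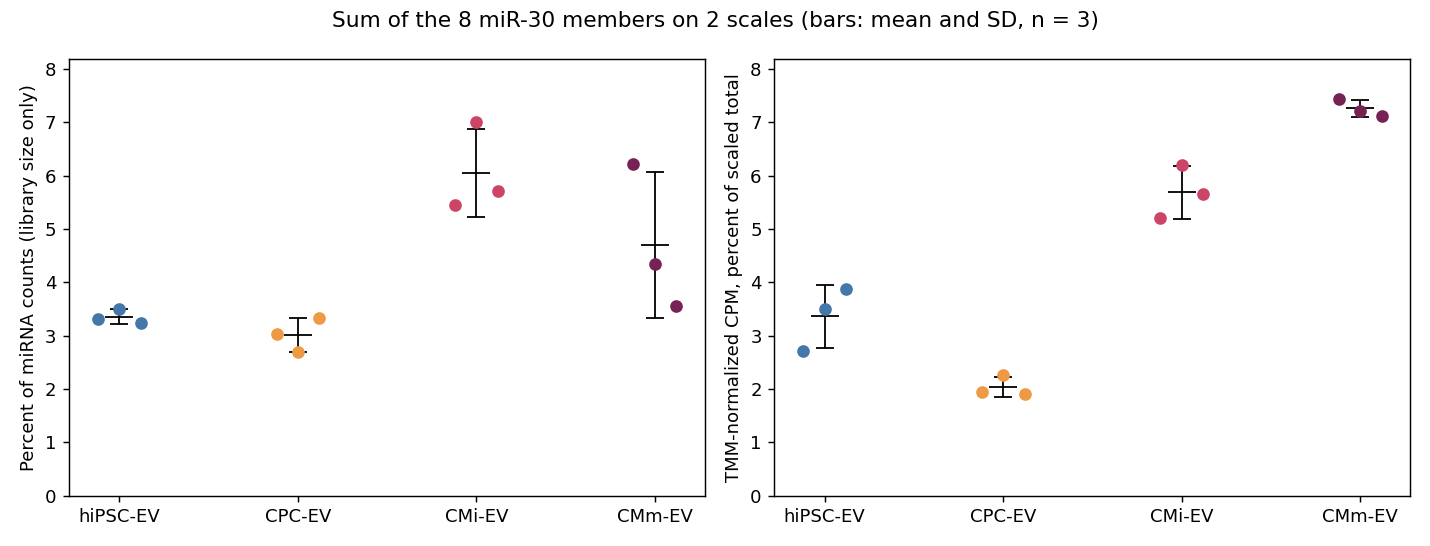
Summed level of the 8 members in each library, as a percent of miRNA counts (left) and as TMM-normalized CPM rescaled to percent of the scaled total (right), with the mean and SD of 3 libraries. CMi-EV is above CPC-EV on both scales, and CMm-EV is above CMi-EV on the right but at 4.71% ± 1.37 against 6.06% ± 0.83 on the left.

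In the step from CPC-EV to CMi-EV the 5p arms of the family rose. All 5 of them rose in CMi-EV against CPC-EV, and neither 3p arm tested passed, giving 5 of 7 tested members called beside 28.4% of the 292 miRNA tested (edgeR quasi-likelihood test with Benjamini-Hochberg adjustment, with an FDR of 0.05 and a log2 change of 1, up or down, as thresholds). Each fit was scaled within the 6 libraries compared, so its fold changes need not equal ratios of the CPM above. miR-30a-5p rose by 1.97 on the log2 scale (SE 0.14, edgeR FDR = 3.1e-04) and miR-30d-5p by 1.67 (SE 0.15, edgeR FDR = 4.0e-04). miR-30b-5p rose by 1.63 (SE 0.21, edgeR FDR = 0.0019), miR-30c-5p by 1.34 (SE 0.17, edgeR FDR = 0.0018) and miR-30e-5p by 1.22 (SE 0.14, edgeR FDR = 0.0011). For each of these arms all 3 CMi-EV libraries lay above all 3 CPC-EV libraries. The share of all tested miRNA that separated in this way was not counted, so this adds nothing to the calls.

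The 3p arms showed larger errors in the same comparison. miR-30e-3p had a log2 fold change of 0.68 (SE 0.29, edgeR FDR = 0.147) and miR-30a-3p of 1.26 (SE 0.64, edgeR FDR = 0.222). The median log2 fold change of the 7 tested members was 1.34, beside −0.05 over all 292 miRNA, of which 42 rose and 41 fell. Whether the 5p arms differed from their 3p arms in this step was not tested here by pair.

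With library size as the only scaling, the median of all miRNA in this comparison moved to −0.52 and the calls dropped to 3 members, miR-30a-5p, miR-30b-5p and miR-30d-5p, beside 29.8% of all tested miRNA. miR-30c-5p and miR-30e-5p then had log2 fold changes of 0.89 and 0.76, under the threshold of 1. The 5p arms kept a positive sign under all 13 alternatives, with log2 fold changes of 1.5 to 2.05 for miR-30a-5p and 1.2 to 1.76 for miR-30d-5p.

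**Figure D3:**
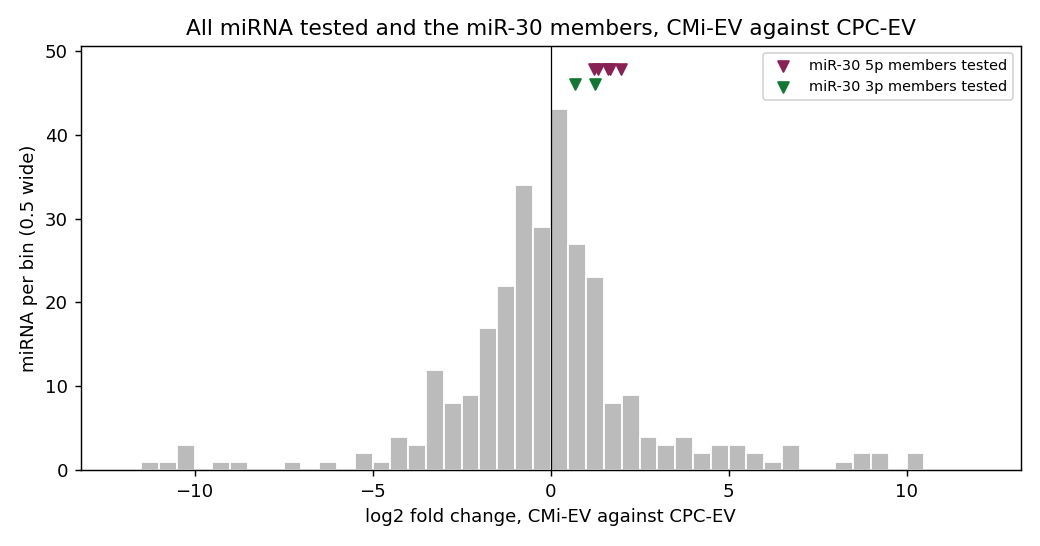
Histogram of the log2 fold change of all 292 tested miRNA in CMi-EV against CPC-EV (bins of 0.5), with triangles above for the tested miR-30 members. The 5p members lie between 1.22 and 1.97 and the 3p members at 0.68 and 1.26, inside a distribution that reaches from −11.01 for miR-302b-5p to 10.37 for miR-490-5p.

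From hiPSC-EV to CPC-EV, the entry into the cardiac lineage, 0 of 7 tested members were called by edgeR, beside 27.5% of 338 miRNA tested. At an unadjusted p of at most 0.05 there were 2 members, beside 37.3% of all tested miRNA, and DESeq2 called 0, beside 32%. miR-30a-5p had a log2 fold change of −0.96 (SE 0.24, edgeR FDR = 0.0203) and miR-30e-5p of −0.49 (SE 0.15, edgeR FDR = 0.0465), both past the FDR and short of the fold threshold. Of 13 alternatives, 10 kept miR-30a-5p past the FDR (highest edgeR FDR 0.0971) and 3 kept miR-30e-5p past it (highest edgeR FDR 0.316). The median was −0.36 over the 7 members and −0.27 over all tested miRNA.

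miR-30c-5p and miR-30d-5p had log2 fold changes of −0.10 (SE 0.15) and −0.11 (SE 0.16), which turned to 0.01 for both with median-of-ratios scaling and to 0.03 and 0.04 with library size only, so no direction is given for them. miR-30a-5p ranged from −1.15 to −0.69 over the alternatives, the weakest value being that without hiPSC-EV replicate 3, and it passed the fold threshold at −1.07 without a filter on low counts, at −1.14 with dispersions and scaling from all 12 libraries, at −1.15 without hiPSC-EV replicate 1 and at −1.04 without hiPSC-EV replicate 2. Without hiPSC-EV replicate 1 there were 2 calls, beside 31.4% of all tested miRNA, the other being miR-30d-3p, which then passed the filter through hiPSC-EV alone and has no count in CPC-EV, so the filter fixed the direction of that call.

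From CMi-EV to CMm-EV, the maturation step, both groups shared a conditioning time of 48 h but differed in culture medium. In this step edgeR called 0 of 7 tested members, beside 16.6% of 247 miRNA tested. None had an unadjusted p of at most 0.05, beside 27.5% of all tested miRNA, and DESeq2 called 0, beside 22.3%. Log2 fold changes lay between 0.00 for miR-30e-5p (SE 0.15) and 0.57 for miR-30a-3p (SE 0.53), with a median of 0.32 beside −0.30 over all tested miRNA. With library size only, the median of all miRNA moved to −0.91 and all 7 members turned negative, from −0.03 for miR-30e-3p to −0.54 for miR-30e-5p, so the sign of this step is set by the scaling.

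**Figure D4:**
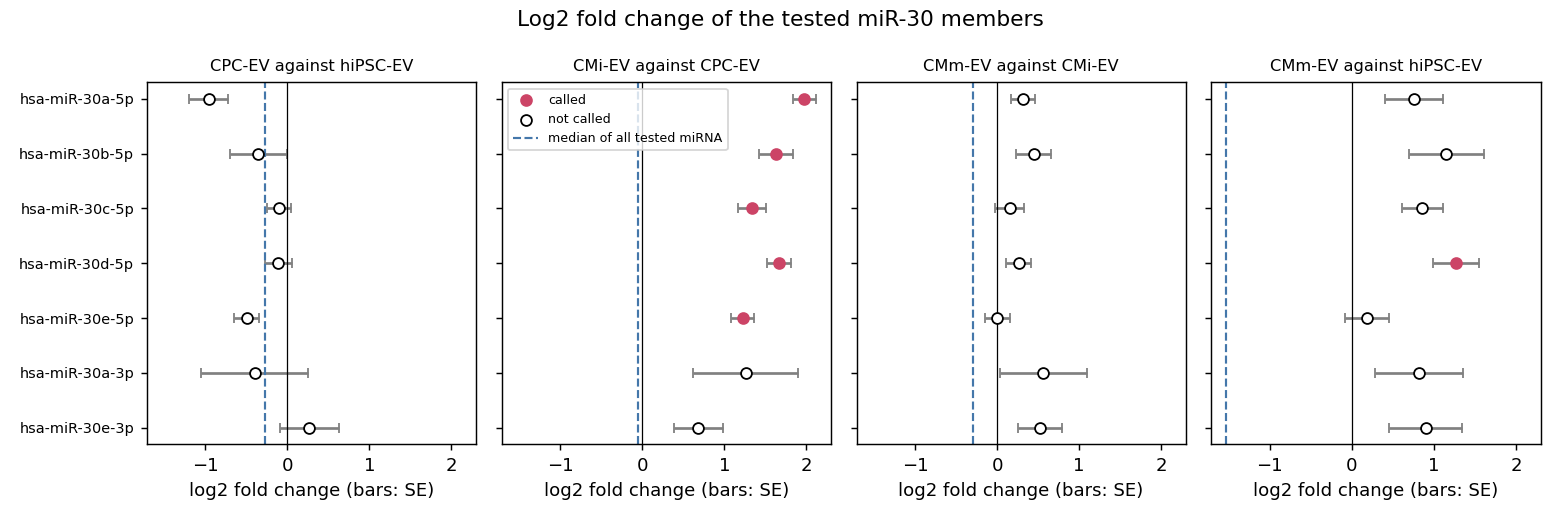
Log2 fold change (x axis) and SE of the 7 tested members in the 4 comparisons, with filled points for called members and a dashed line at the median of all tested miRNA. The 5p arms are called in CMi-EV against CPC-EV and hsa-miR-30d-5p alone in CMm-EV against hiPSC-EV, and with library size as the only scaling the 7 members turn negative in CMm-EV against CMi-EV.

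Across the whole course, CMm-EV against hiPSC-EV, edgeR called 1 of 7 tested members, beside 53.6% of 336 miRNA tested, a share above that of the family. miR-30d-5p rose by 1.26 on the log2 scale (SE 0.28, edgeR FDR = 0.0071), with all 3 CMm-EV libraries above all 3 hiPSC-EV libraries. miR-30c-5p had 0.86 (SE 0.25, edgeR FDR = 0.0245), under the fold threshold, miR-30b-5p had 1.15 (SE 0.46, edgeR FDR = 0.0708), and miR-30e-5p had 0.19 (SE 0.27, edgeR FDR = 0.589). The median was 0.86 over the 7 members and −1.53 over all tested miRNA, with 54 of the 180 called miRNA rising.

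This count moved under several alternatives. It was 5 with median-of-ratios scaling (beside 55.1% of all tested miRNA), 5 with dispersions and scaling from all 12 libraries (51.5%) and 6 with DESeq2 (61.6%). It was 0 with library size only (59.2%), where miR-30d-5p stood at 0.95 and miR-30e-5p at −0.13. The median of all miRNA moved to −1.20 with median-of-ratios scaling and to −1.97 with library size only. It was also 5 without CMm-EV replicate 1 (52.4%), 3 without hiPSC-EV replicate 3 (47.1%) and 2 without CMm-EV replicate 3 (58.1%). The comparisons share groups, so their calls are not independent of each other.

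In 1 test over the 4 EV groups, 6 of 7 tested members differed, beside 50.7% of all miRNA tested (edgeR quasi-likelihood F-test with Benjamini-Hochberg adjustment). The FDR was 9.5e-06 for miR-30d-5p, 5.0e-05 for miR-30a-5p, 7.4e-05 for miR-30c-5p, 3.2e-04 for miR-30e-5p, 0.0010 for miR-30b-5p and 0.0300 for miR-30e-3p by edgeR. miR-30a-3p did not pass (edgeR FDR = 0.0951), and miR-30d-3p was not tested. The count fell to 4 with library size only (beside 54% of all miRNA), where miR-30e-5p and miR-30e-3p were lost, and to 4 without a filter on low counts (17.5%), where miR-30b-5p and miR-30e-3p were lost. It was 5 without CPC-EV replicate 1 (48%), where miR-30e-3p was lost, and 7 without CMi-EV replicate 3 (51.3%) and with DESeq2 (52.9%), where miR-30a-3p was gained.

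The make-up of the family changed beside its level, and shares within a library do not depend on the scaling. miR-30e-5p held 34.7%, 35.1% and 33.1% of the 5p counts in hiPSC-EV and 31.1%, 28.8% and 30.5% in CPC-EV, then 24.6%, 24.8% and 26.2% in CMi-EV and 22.4%, 22.8% and 21.7% in CMm-EV. miR-30d-5p held 28%, 29.4% and 29.1% in hiPSC-EV and 32.6%, 33.4% and 33.5% in CPC-EV, then 40.2%, 36.8% and 36.1% in CMi-EV and 40.9%, 37.7% and 40.9% in CMm-EV. The share of miR-30e-5p was lower at each later stage with no overlap between groups, while that of miR-30d-5p was higher at each stage up to CMi-EV and overlapped between CMi-EV and CMm-EV.

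The ratio of miR-30d-5p to miR-30e-5p counts was 0.806, 0.839 and 0.879 in hiPSC-EV and 1.05, 1.16 and 1.10 in CPC-EV, then 1.63, 1.48 and 1.38 in CMi-EV and 1.83, 1.65 and 1.88 in CMm-EV. The groups did not overlap, and miR-30e-5p was the larger of both in every hiPSC-EV library and the smaller in every other library. This ratio was chosen after its values were seen and is a description with no test. miR-30a-5p held 10.7% ± 2.06 (SD, n = 3) of the 5p counts in hiPSC-EV and 6.93% ± 0.18 in CPC-EV, then 9.80% ± 1.36 in CMi-EV and 10.7% ± 0.15 in CMm-EV, its lowest share being in CPC-EV. miR-30c-5p stayed between 22.7% and 29.6% and miR-30b-5p between 1.15% and 2.13% in the 12 libraries.

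**Figure D5:**
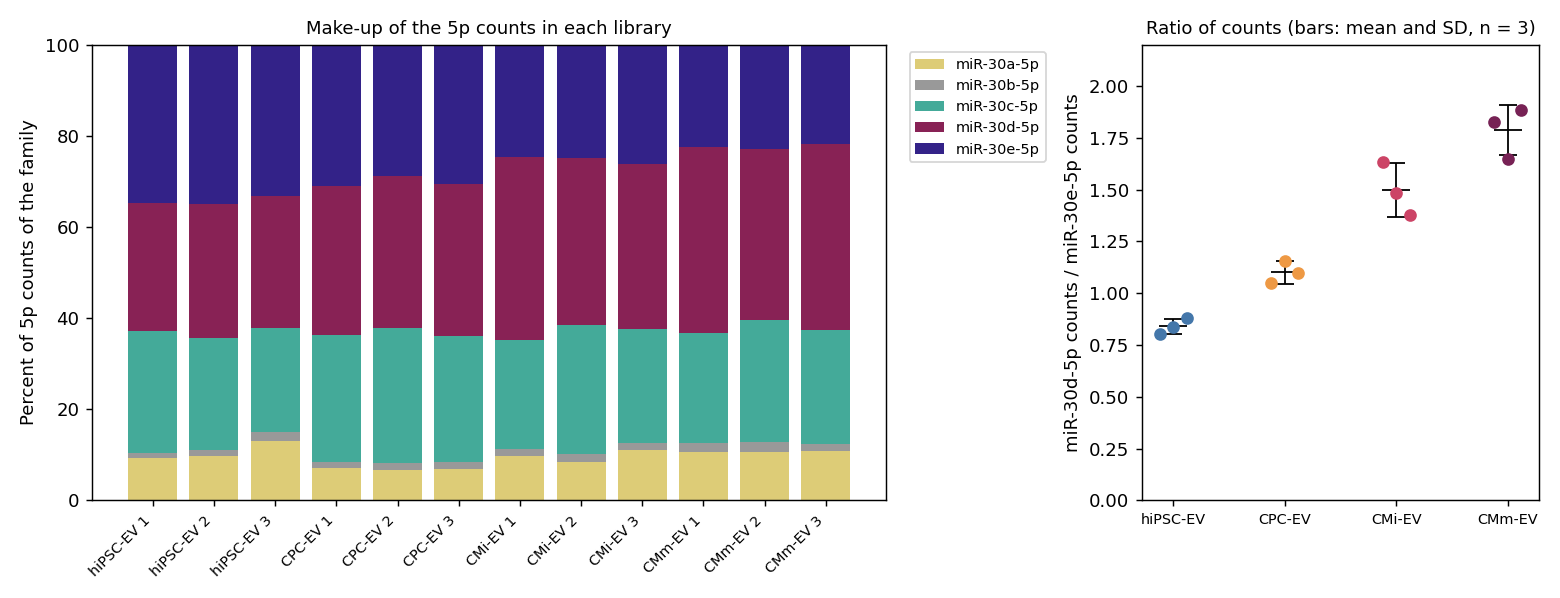
Share of each 5p member in the 5p counts of the family in the 12 libraries (left, stacked bars, percent) and the ratio of miR-30d-5p to miR-30e-5p counts by EV group (right, points for libraries, bars for the mean and SD of 3). The ratio averages 0.841 in hiPSC-EV and 1.10 in CPC-EV, then 1.5 in CMi-EV and 1.79 in CMm-EV.

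The 3p arms made up 1.5% ± 0.39 (SD, n = 3) of the family counts in hiPSC-EV and 2.04% ± 0.52 in CPC-EV, then 1.30% ± 0.44 in CMi-EV and 1.69% ± 0.22 in CMm-EV. These ranges overlapped. The log2 ratio of 5p to 3p counts of the miR-30e hairpin was 5.41, 4.65 and 4.68 in hiPSC-EV and 4.50, 3.68 and 4.19 in CPC-EV, then 4.70, 4.98 and 4.27 in CMi-EV and 4.14, 4.27 and 3.91 in CMm-EV. It was highest in hiPSC-EV replicate 1, the library with the fewest miRNA counts. The hiPSC-EV range lay above those of CPC-EV and CMm-EV, the lowest CMi-EV library lay just above the highest CMm-EV library, and the other pairs of groups overlapped. That of the miR-30a hairpin averaged 5.02 ± 0.21 in hiPSC-EV and 4.61 ± 0.99 in CPC-EV, then 5.25 ± 0.54 in CMi-EV and 4.94 ± 0.42 in CMm-EV. Its groups overlapped.

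limma called 0 of these 2 hairpins over the 4 groups, beside 7.25% of the 69 hairpins tested, and neither had an unadjusted p of at most 0.05, beside 23.2%. The adjusted p from limma was 0.293 for miR-30e and 0.864 for miR-30a. The 5p arm was the more abundant in each library for both hairpins. The 3p arms of the other hairpins had lower levels, with miR-30b-3p counted in 1 library (5 counts in hiPSC-EV replicate 3), and miR-30c-1-3p and miR-30c-2-3p averaging at most 9.79 and 15.7 CPM in any group.

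The miRNA outside the family whose levels were most like that of miR-30d-5p over the 12 libraries (Pearson r of log2 CPM, a description over libraries that share their groups and scaling) were miR-133b (r = 0.966), miR-100-5p (0.952), miR-1301-3p (0.946), miR-584-5p (0.942) and let-7c-5p (0.938). Their ranges of change were larger for some, since miR-133b, a muscle miRNA, averaged 0.669 CPM in CPC-EV and 58.4 CPM in CMi-EV, and miR-100-5p 1980 and 215357 CPM. miR-1301-3p, at 204 and 711 CPM, came closer in size to the miR-30 arms. Levels near what a count of 0 allows entered r for some. let-7c-5p averaged 0.142 CPM in hiPSC-EV and 0.124 CPM in CPC-EV, miR-133b 1.22 CPM in hiPSC-EV and miR-584-5p 0.256 CPM in CPC-EV. Among the other tested members r with miR-30d-5p was 0.986 for miR-30c-5p, 0.968 for miR-30b-5p, 0.941 for miR-30a-5p, 0.911 for miR-30e-5p, 0.854 for miR-30e-3p and 0.788 for miR-30a-3p. For miR-30c-2-3p, the opposite arm of 1 miR-30c hairpin, it was −0.237, and r of that arm with miR-30e-3p was −0.189.

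For miR-30e-3p, the most abundant 3p member, the closest miRNA outside the family were miR-27b-3p (r = 0.903), let-7e-5p (0.887), miR-584-5p (0.880), miR-26a-5p (0.878) and miR-181a-5p (0.873). miR-27b-3p averaged 3991 CPM for hiPSC-EV and 15974 CPM for CMm-EV, and let-7e-5p, of the let-7 family of differentiated cells, 17.4 and 9659 CPM. Its r with the 5p arm of its own hairpin was 0.745, lower than with the 3p arm of miR-30a (0.871).

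Fragments of messenger RNA in the same libraries were counted for 28 genes, namely 19 known targets of the family, the host gene NFYC and 8 genes of miRNA processing and loading. Of these, 27 had a row and 7 passed the filter of 5 CPM in each library of at least 1 group, and 1 gene was called over the 4 groups, beside 32.9% of the 3381 transcripts tested (edgeR quasi-likelihood F-test). The called gene was NOTCH1, a receptor of developmental signaling, with 10, 22 and 48 counts in hiPSC-EV, 1 count in CMi-EV replicate 1 and 0 counts in the other libraries (edgeR FDR = 0.0119). NOTCH1 passed the filter through hiPSC-EV alone, where it is high, so its call was fixed in part by the filter, and it was lost with the filterByExpr filter of edgeR, beside 2.75% of transcripts called.

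The best known cardiac targets had counts in few libraries. CCN2 (listed as CTGF) had 19 and 31 counts in 2 hiPSC-EV libraries and 0 in the others, BECN1 had 10 counts in CPC-EV replicate 2, and NFYC had 14 counts in hiPSC-EV replicate 3. The calcineurin genes PPP3CA, PPP3CB and PPP3R1 had counts in 5, 3 and 3 libraries. With counts in so few libraries no difference is read from these transcripts.

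Of the Argonaute genes, whose proteins hold the miRNA, AGO1 reached 99, 474 and 294 counts in CPC-EV and at most 68 counts in any other library, at 108 to 328 CPM in CPC-EV, 0 to 90.9 CPM in hiPSC-EV, 0 to 78.2 CPM in CMi-EV and 0 to 163 CPM in CMm-EV (edgeR FDR = 0.421). The CPC-EV and CMm-EV ranges overlapped. AGO1 passed the filter through CPC-EV alone, where it is high, so nothing is read from its test. AGO2 averaged 77.0 ± 47.2 CPM in hiPSC-EV, 63.7 ± 29.2 in CPC-EV and 118 ± 103 in CMi-EV and had 0 counts in CMm-EV (edgeR FDR = 0.0513), and it was called by DESeq2, without CPC-EV replicate 3 and without CMi-EV replicate 1, which gave 2 genes each, beside 34.4%, 36.7% and 28.7% of all transcripts tested. CCN2 was called beside NOTCH1 without hiPSC-EV replicate 1 (14.1% of transcripts called), and AGO3 without CMm-EV replicate 2 (21.8%). Each entered the test then through 1 group alone (hiPSC-EV for CCN2, CMm-EV for AGO3), so the filter fixed these calls in part and nothing is read from them.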

How the data were processed

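Small RNA libraries of 12 EV preparations were analysed as 4 groups of 3. The authors processed reads with the exceRpt pipeline on hg38 with miRBase, and the submitters' processing notes name edgeR 3.24.0. The expected counts deposited by the authors for miRNA and for gencode transcripts were rounded to whole numbers. The RPM deposited by the authors, reads scaled to the library total, served for 1 alternative. The members and gene lists were chosen with earlier results of these data known.

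Fits used edgeR 4.0.16, limma 3.58.1 and DESeq2 1.42.0 in R 4.3.3, on features that reached 5 CPM throughout the 3 libraries of some group. Tests were two-sided, and p-values were adjusted (Benjamini-Hochberg) over the whole table. Calls in pairs needed an FDR up to 0.05 with a log2 change of 1 or more, and calls over 4 groups needed the FDR alone. Standard errors came from the fitted weights and the quasi-dispersion. Arm ratios used a pseudocount of 0.5 counts on each arm, and likeness used log2 of CPM plus 1. All 8 members were named with values, other arms with counts, the 5 miRNA most like the leading 5p and 3p members, and the called genes of the target and host list; genes named beyond these were chosen after their values were seen. Values of 1 gene of that list are not reported here. Replicates differed beyond sampling noise (chi-square per degree of freedom 51.6 to 712), so each counted once. Alternatives were other scalings, filters, DESeq2, a replicate block, dispersions together with scaling over all libraries and each library left out; leaving out libraries for the ratio of miR-30d-5p to miR-30e-5p and for the cardiomyocyte sum was added after seeing the data. Sequences came from RefSeq and gene models from GENCODE (both GRCh38). The scripts were tested on simulated data. Figures were drawn with matplotlib 3.10.9.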

Additional observations from a re-analysis of the deposited data

How the results depend on the processing

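The call of 5 members in CMi-EV against CPC-EV held at 5 without each library in turn (beside 23.9% to 30.9% of all tested) and moved to 3 with library size only (29.8%). In CPC-EV against hiPSC-EV the count of 0 became 1 without a filter (7.66%) and 1 with dispersions and scaling from all 12 libraries (20.7%), and ranged from 0 to 2 without single libraries (21.6% to 31.4%). In CMm-EV against hiPSC-EV the count of 1 became 5 with median-of-ratios scaling (55.1%), 0 with library size only (59.2%), 6 with DESeq2 (61.6%) and 5 with dispersions and scaling from all 12 libraries (51.5%), and ranged from 1 to 5 without single libraries (44.6% to 58.1%). In CMm-EV against CMi-EV it was 0 under all alternatives (6.88% to 22.3%). Over the 4 groups, 5 to 7 members were called without single libraries (41% to 51.3%), and the arm ratio gave 0 throughout (1.32% to 15.9%). Among target and host genes the count of 1 became 0 with the filterByExpr filter (2.75%) and 2 with DESeq2 (34.4%), and was 1 to 2 without single libraries (at most 36.7%). The causes were not tested. Depth limits what a count of 0 says, which allows a level of up to 0.640 to 3.64 CPM in the 12 libraries.

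The family share in hiPSC-EV was 3.36% and 1.79% in the authors' RPM, which divides by a library total larger than the miRNA counts. In CPC-EV it was 3.01%, 2.04% with TMM scaling and 1.33% in RPM, in CMi-EV 6.06% and 3.64% in RPM, and in CMm-EV 4.71%, 7.26% with TMM scaling and 3.48% in RPM. Without single libraries it was 3.28% to 3.41%, 2.86% to 3.18%, 5.59% to 6.36% and 3.95% to 5.28% in these groups.

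Of 364 alternatives of single fold changes, 320 kept direction and side of the threshold, 3 lost and 24 gained a call, and 17 changed sign, none of them called. In CPC-EV against hiPSC-EV, miR-30c-5p turned to 0.012 with median-of-ratios scaling, 0.032 with library size only and 0.012 with DESeq2, and miR-30d-5p to 0.0084, 0.037 and 0.0081; without single libraries miR-30b-5p ranged from −0.60 to 0.038 and miR-30e-3p from −0.025 to 0.44. In CMm-EV against CMi-EV with library size only, the values were −0.23 for miR-30a-5p, −0.088 for miR-30b-5p, −0.41 for miR-30c-5p, −0.29 for miR-30d-5p, −0.54 for miR-30e-5p, −0.053 for miR-30a-3p and −0.027 for miR-30e-3p, and miR-30e-5p ranged from −0.017 (without CMm-EV replicate 2) to 0.10 without single libraries. In CMm-EV against hiPSC-EV miR-30e-5p was −0.13 with library size only.

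Same-numbered libraries did not visibly deviate together (r from −0.121 to 0.096 over 12 pairs). With 3 libraries in each group this cannot exclude a pairing by number. With the replicate block the members called were 0, 5, 0 and 1 in the 4 comparisons in the order hiPSC-EV to CPC-EV, CPC-EV to CMi-EV, CMi-EV to CMm-EV and hiPSC-EV to CMm-EV, and 7 over the 4 groups (beside 40.1% of all miRNA), while the calls over all miRNA moved from 93 to 39, 83 to 69, 41 to 17 and 180 to 137.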
